A study of Mus musculus with 9 samples.

Results

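Foxm1 encodes a forkhead transcription factor, and it was examined together with 34 other genes of the cell cycle, 35 in all of the 27179 genes in the table. The genes were taken from a list of names, which was drawn up with earlier results of these data known. They comprise Foxm1 itself, 19 genes of G2 phase and mitosis, 9 genes of DNA replication and nucleotide supply, 3 G1 cyclins, 2 inhibitors of cyclin-dependent kinases, and Mad2l2, an adaptor of DNA polymerase zeta. All 35 were in the table, and 33 passed the filter on low counts (1 count or more in 3 or more libraries of a genotype). Bub1, a kinase of the spindle checkpoint, and the cyclin Ccne2 did not pass it, with at most 3 counts in any library, and have no test.

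The comparison was between livers of female Apoe-/- mice and female Mif-2-/- Apoe-/- mice, both on a Western-type high-fat diet (HFD) for 12 weeks from 8 weeks of age. The Apoe-/- mice had a C57BL/6 background. Both groups lack apolipoprotein E, and the deletion of Mif-2, which is encoded by Ddt, is global and not limited to hepatocytes. RNA came from frozen, OCT-embedded liver sections, of which 3 to 4 were combined per sample, and was amplified by Smart-seq2, a protocol that does not mark the strand. There were 5 Apoe-/- and 4 Mif-2-/- Apoe-/- libraries with 2318148 to 10764182 counts each, while the study describes 4 mice per group, so p-values measure the spread between these libraries.

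A dividing cell copies its DNA in S phase and separates the copies in mitosis. FOXM1 is made in proliferating cells, where it acts late in the cycle with the MuvB complex to switch on genes of G2 phase and mitosis, such as those of cyclin B, Polo-like kinase and the Aurora kinases. Most hepatocytes of an adult liver are out of the cycle, and Foxm1 is best known there for its part in regeneration.

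The promoters bear on this link, because MuvB binds the CHR element (TTTGAA or TTCGAA) and NF-Y binds the CCAAT box, both common upstream of mitotic genes. The RefSeq table of promoters (GRCm38.p6) held 31 windows for 28 of the 35 genes and none for Foxm1, Ccna2, Aurkb, Kif20a, Ccne2, Ccnd1 and Mcm4. In the 250 bases before the start, searched on both strands, a CHR element was found in 9 of the 31 windows (29.0%, against 17.1% of all 32841 windows) and a CCAAT box in 24 (77.4%, against 33.9%). All 9 with a CHR element also held a CCAAT box, a combination found in 6.02% of all windows. The motifs are a description of these letters and not of binding. Of the genes of cyclin B, Polo-like kinase and the Aurora kinases, the window of Ccnb2 held both motifs. Those of Ccnb1, Plk1 and Aurka held a CCAAT box but no CHR element. The windows of Mki67, Cdk1 and Top2a are shown because they hold both motifs, and the listed starts of Mad2l2 because it was the other gene called. Capitals mark CHR elements and CCAAT boxes (TTCAAA and ATTGG on the other strand), which did not overlap each other.
Mki67 (chr7:135716380-135716629, minus strand): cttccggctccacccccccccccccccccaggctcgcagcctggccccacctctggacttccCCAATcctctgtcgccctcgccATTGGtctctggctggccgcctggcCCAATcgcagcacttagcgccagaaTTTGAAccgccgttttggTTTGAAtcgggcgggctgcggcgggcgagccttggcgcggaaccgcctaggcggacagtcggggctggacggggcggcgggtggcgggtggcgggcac
Cdk1 (chr10:69352913-69353162, minus strand): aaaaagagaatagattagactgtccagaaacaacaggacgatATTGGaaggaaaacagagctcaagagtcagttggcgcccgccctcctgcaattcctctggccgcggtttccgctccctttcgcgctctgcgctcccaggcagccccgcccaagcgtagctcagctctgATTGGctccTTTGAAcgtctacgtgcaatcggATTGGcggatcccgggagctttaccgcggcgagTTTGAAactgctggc
Top2a (chr11:99024190-99024439, minus strand): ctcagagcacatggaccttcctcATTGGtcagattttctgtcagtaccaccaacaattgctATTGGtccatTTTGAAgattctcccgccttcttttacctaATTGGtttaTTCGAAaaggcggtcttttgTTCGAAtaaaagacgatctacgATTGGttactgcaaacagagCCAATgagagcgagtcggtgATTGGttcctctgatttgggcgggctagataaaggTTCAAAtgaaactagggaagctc
Mad2l2, first listed start (chr4:148130670-148130919, plus strand): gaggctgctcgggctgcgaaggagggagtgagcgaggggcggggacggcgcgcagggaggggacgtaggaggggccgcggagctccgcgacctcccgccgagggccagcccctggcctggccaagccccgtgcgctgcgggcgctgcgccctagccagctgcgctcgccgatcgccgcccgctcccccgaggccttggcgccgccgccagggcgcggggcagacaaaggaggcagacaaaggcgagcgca
Mad2l2, other listed start (chr4:148140240-148140489, plus strand): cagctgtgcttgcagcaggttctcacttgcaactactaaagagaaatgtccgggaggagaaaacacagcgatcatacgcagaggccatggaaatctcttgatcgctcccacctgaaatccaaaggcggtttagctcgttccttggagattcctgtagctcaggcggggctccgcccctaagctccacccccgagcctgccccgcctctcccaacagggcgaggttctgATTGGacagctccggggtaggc
In the mitotic windows the CHR element nearest to the start began 98 bases before it in Mki67, 15 in Cdk1 and 23 in Top2a. The Mad2l2 windows held no CHR element, and the second of them held a CCAAT box that began 22 bases before the start.

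Levels are given as counts per 1e6 counts (CPM) of the genes tested, after TMM normalization. Ddt, the deleted gene, was at 233 to 972 CPM in Apoe-/- and 2.51 to 5.49 CPM in Mif-2-/- Apoe-/- livers, as the labels have it. Apoe-/- replicate 5 and Mif-2-/- Apoe-/- replicate 3 had the most genes with a count (18587 and 18631, against 14220 to 17335 in the others) and were the 2 libraries with the lowest summed level of 6 hepatocyte markers (63715 and 63463 CPM, against 85282 to 198535 CPM). Albumin, the defining product of hepatocytes, was never below 23607 CPM. In bulk liver, fewer cells of a type and less RNA per cell cannot be told apart.

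Foxm1 was higher in Mif-2-/- Apoe-/- livers, and it was the only gene of the 33 tested that was called higher. The Apoe-/- libraries held 1, 2, 1, 0 and 1 counts of Foxm1 (Entrez 14235), and the Mif-2-/- Apoe-/- libraries held 26, 190, 155 and 17. In CPM these were 0.14, 0.27, 0.47, 0 and 0.19 against 5.29, 107.9, 39.1 and 3.89. Replicates 2 and 3 of Mif-2-/- Apoe-/- were far above replicates 1 and 4, and all 4 lay above every Apoe-/- library.

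The Foxm1 means were 0.21 ± 0.17 CPM (SD, n = 5) and 39.0 ± 48.7 CPM (SD, n = 4), so the spread within Mif-2-/- Apoe-/- exceeded its mean. Since each Apoe-/- library had at most 3 counts, the change is a lower bound. Against a floor of 3 counts in each of those libraries, Foxm1 was at least 57.3-fold higher, and at least 23.6-fold higher without Mif-2-/- Apoe-/- replicate 2. The fit gave a log2 fold change of 7.48 with a standard error of 1.16, at an adjusted p = 0.0171 in edgeR's quasi-likelihood test and of 2.3e-08 in DESeq2. Permuting the libraries gave an exact two-sided p = 0.0079, the smallest that 5 against 4 libraries allow. With edgeR, the adjusted p was 0.078, 0.055, 0.056 and 0.060 when Apoe-/- replicate 1, 2, 3 or 4 was left out, and under 0.05 when any of the other 5 libraries was.

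The annotated span of Foxm1 (GENCODE, GRCm38) is chr6:128362967-128376146, plus strand, with up to 8 exons per transcript. Of the genes annotated within 100 kb, none of those tested was called. Rhno1, a partner of the DNA damage checkpoint clamp that starts 56 bases from Foxm1 on the opposite strand, was at 10.7 to 29.2 CPM in Apoe-/- and 18.6 to 67.4 CPM in Mif-2-/- Apoe-/- livers, and the ranges overlapped (log2 fold change 0.95, adjusted p = 0.39). Tulp3, which acts in transport into cilia, was at 0.40 to 15.96 and 5.29 to 24.4 CPM (log2 fold change 1.19, adjusted p = 0.63). Fkbp4, a co-chaperone of Hsp90, was the most abundant neighbor, at 316 to 497 and 182 to 440 CPM (log2 fold change -0.55, adjusted p = 0.43). Tead4, Nrip2, Itfg2 and Gm10069 were not called either, with log2 fold changes from 0.59 to 3.62. Tex52 and Gm44596 lie on the same strand and share 144 and 97 exon bases with the 3′ end of Foxm1, where their reads cannot be told apart from those of Foxm1. Tex52 had 1 count over all 9 libraries, and Gm44596 was not analysed here.

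**Figure D1:**
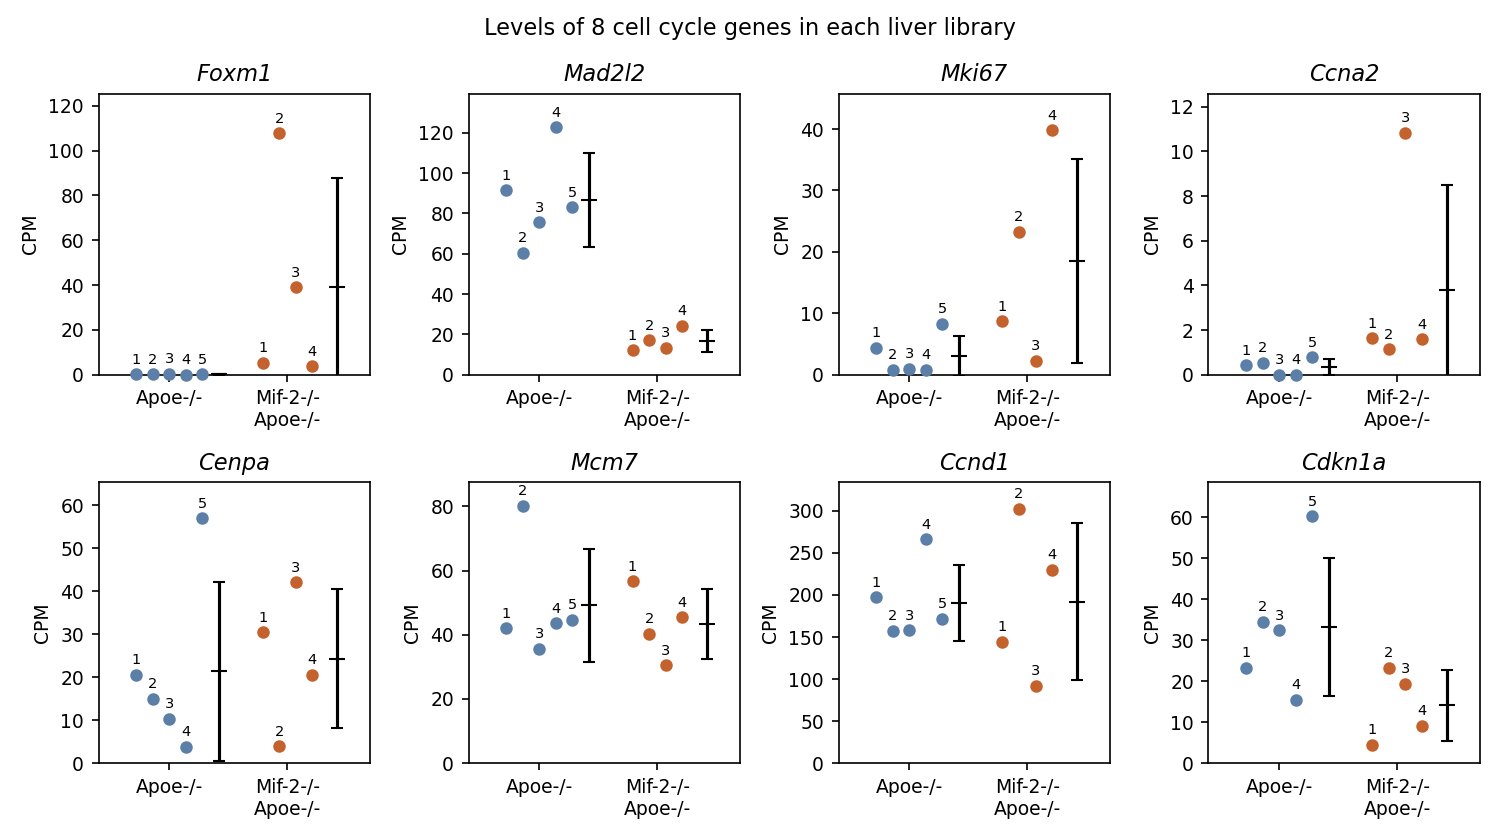
Levels of 8 cell cycle genes in CPM (vertical axes, each from 0) in the 5 Apoe-/- (blue) and 4 Mif-2-/- Apoe-/- (orange) libraries, numbered by replicate. Black bars are the mean ± SD, with the lower end cut at 0 where it would be negative. Foxm1 lay at or below 0.47 CPM in each Apoe-/- library and Mad2l2 at 60.5 CPM or more, and for Foxm1, Mad2l2 and Ccna2 the genotypes did not overlap.

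Mad2l2 was the only gene of the 33 that was called lower in Mif-2-/- Apoe-/- livers. Its protein, also known as REV7, joins the subunits of the translesion polymerase zeta and is part of the shieldin complex that protects DNA ends. It shares a fold with the spindle checkpoint protein Mad2l1. The Apoe-/- libraries held 667, 451, 161, 609 and 429 counts of Mad2l2 (Entrez 71890) and the Mif-2-/- Apoe-/- libraries held 60, 30, 53 and 106.

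In CPM, Mad2l2 was at 91.5, 60.5, 75.6, 122.8 and 83.1 against 12.2, 17.0, 13.4 and 24.2. The highest Mif-2-/- Apoe-/- library, replicate 4, was well below the lowest Apoe-/- library, replicate 2. The means were 86.7 ± 23.2 CPM (SD, n = 5) and 16.7 ± 5.43 CPM (SD, n = 4). The fit gave a log2 fold change of -2.37 with a standard error of 0.39, at an adjusted p = 0.0275 in edgeR and of 2.3e-08 in DESeq2. The level in Apoe-/- was thus 5.18-fold that in Mif-2-/- Apoe-/- livers (two-sided exact permutation test, p = 0.0079). The adjusted p of edgeR was 0.086, 0.060 and 0.067 without Apoe-/- replicate 1, 3 or 4, and 0.077 and 0.094 without Mif-2-/- Apoe-/- replicate 1 or 3, with a log2 fold change between -2.61 and -2.24 in all 9 fits that left out 1 library. Without the 2 libraries that had the most genes detected it was -2.28 with an adjusted p of 0.053, and for Foxm1 it was 7.51 with an adjusted p of 0.030.

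The annotated span of Mad2l2 is chr4:148130384-148145699, plus strand. Its exons shared no base with those of Draxin, a guidance cue of axons that overlaps its start on the opposite strand. Draxin was at 1.41 CPM or less in Apoe-/- and at 0, 26.7, 22.9 and 0 CPM in Mif-2-/- Apoe-/- livers (log2 fold change 4.999, adjusted p = 0.20). Fbxo6, a ubiquitin ligase adaptor for glycoproteins that ends 17 bases past Mad2l2 on the opposite strand, was at 96.2 to 316 CPM in Apoe-/- and 50.8 to 154 CPM in Mif-2-/- Apoe-/- livers (log2 fold change -0.97, adjusted p = 0.29). These neighbors of Mad2l2 were looked at after its values were known.

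These 2 calls are set beside those over all genes. The list was drawn up with earlier results of these data known, so the shares are no test of it. By edgeR, 12 of 16860 genes were called higher in Mif-2-/- Apoe-/- livers (0.0712%) and 10 lower (0.0593%), and the split was 12 to 15 with RLE size factors and 12 to 18 with TMMwsp. By DESeq2, 2.75% of the genes with an adjusted p were called higher and 2.52% lower, and Foxm1 and Mad2l2 were again the only members called, with no adjusted p for 8 scarce or uneven ones, Plk1 and Aurka among them. At an unadjusted edgeR p under 0.05 there were 4 members higher (Foxm1, Mki67, Ccna2 and Mcm2), against 8.99% of all genes, and 1 lower, Mad2l2, against 6.52%. The genotypes did not overlap at 2 members that were higher in Mif-2-/- Apoe-/- (Foxm1 and Ccna2), against 2.03% of all genes, and at 1 that was lower, against 2.24%. Without Foxm1, 3 of the other 32 were higher at the unadjusted p, a share near that of all genes.

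**Figure D2:**
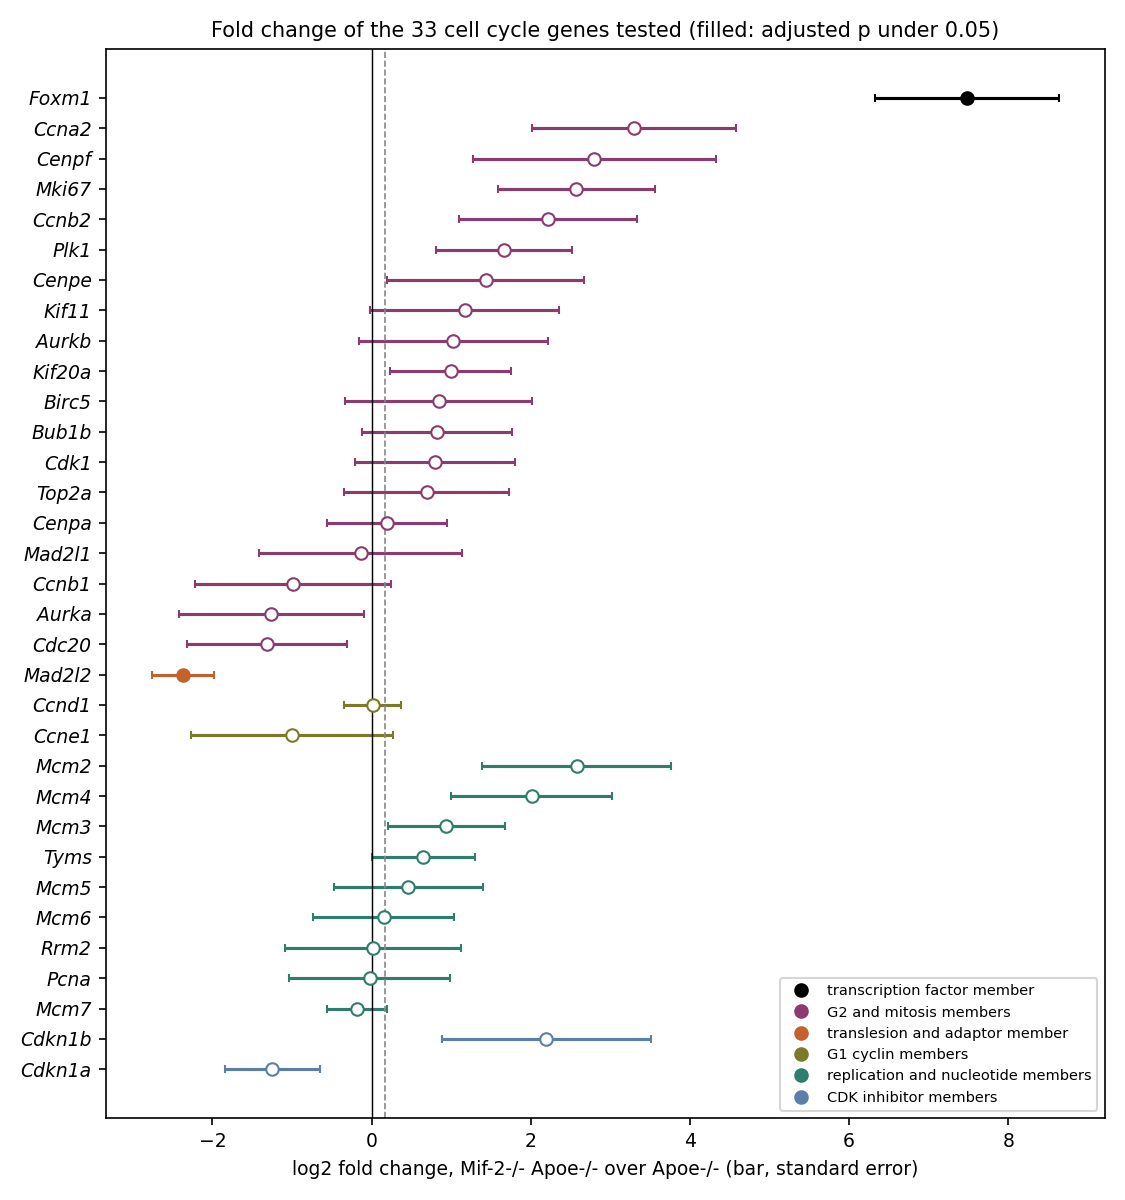
Log2 fold change of Mif-2-/- Apoe-/- over Apoe-/- (horizontal axis) for the 33 genes tested, with bars of 1 standard error, colored by role. Filled points, Foxm1 at 7.48 and Mad2l2 at -2.37, had an adjusted p under 0.05 by edgeR, and the dashed line is the median of all genes tested, 0.17.

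No gene of G2 phase and mitosis was called in either direction by edgeR or DESeq2, and 2 (Mki67 and Ccna2) had an unadjusted edgeR p under 0.05. Of the 19, 18 were tested, and 14 had a log2 fold change above 0 and 4 below. Their median was 0.92, beside 0.17 over all 16860 genes, of which 56.5% were above 0. Without Mif-2-/- Apoe-/- replicate 3, 12 were above 0 and 6 below, with a median of 0.30 beside 0.012 over all genes. In each other fit that left out 1 library, 13 to 15 were above 0. Their medians were 0.69 to 1.34, beside 0.083 to 0.34 over all genes. Most were scarce, since 11 of the 19 had a mean under 5 CPM over the 9 libraries.

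Mki67, the proliferation antigen Ki-67 that coats mitotic chromosomes, was at 4.39, 0.80, 0.94, 0.81 and 8.32 CPM in Apoe-/- and at 8.74, 23.3, 2.27 and 39.8 CPM in Mif-2-/- Apoe-/- livers. Replicate 3 of Mif-2-/- Apoe-/- was below 2 of the Apoe-/- libraries, so the groups overlapped. The means were 3.05 ± 3.32 CPM (SD, n = 5) and 18.5 ± 16.7 CPM (SD, n = 4). The log2 fold change of 2.57 had a standard error of 0.99 and missed the threshold, at an adjusted p = 0.24 in edgeR and 0.093 in DESeq2. The order of the Mif-2-/- Apoe-/- libraries differed from that of Foxm1, as Mki67 was highest in replicate 4, where Foxm1 was lowest.

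Ccna2, the cyclin of S and G2 phase, was near the limit of detection. It had 3, 4, 0, 0 and 4 counts in Apoe-/- and 8, 2, 43 and 7 counts in Mif-2-/- Apoe-/- libraries, which was 0.41, 0.54, 0, 0 and 0.77 CPM against 1.63, 1.14, 10.8 and 1.6003 CPM. After normalization the groups did not overlap, although the counts of single libraries did. The log2 fold change of 3.30 had a standard error of 1.28, at an adjusted p = 0.25 in edgeR and 0.10 in DESeq2, while permuting the libraries gave an exact two-sided p = 0.0079 before any adjustment. Without Mif-2-/- Apoe-/- replicate 3, its fitted log2 fold change was 1.92.

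Cenpa, the histone H3 variant of the centromere, had the highest mean CPM of the G2 and mitosis genes. It was at 20.6, 15.02, 10.3, 3.83 and 56.9 CPM in Apoe-/- and at 30.5, 3.98, 42.1 and 20.6 CPM in Mif-2-/- Apoe-/- livers. The ranges overlapped almost fully, and the lowest Mif-2-/- Apoe-/- library was replicate 2, the library with the most Foxm1 (log2 fold change 0.19, standard error 0.75, adjusted p = 0.93).

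The kinases of mitosis went in both directions and none was called. Plk1, the Polo-like kinase, was at 1.88 to 9.10 CPM in Apoe-/- and at 4.34 to 44.1 CPM in Mif-2-/- Apoe-/- livers, where replicate 3 alone was above 9 CPM (log2 fold change 1.66, adjusted p = 0.37, and 0.33 on the log2 scale without that library). Aurka, the kinase of the spindle poles, had a log2 fold change of -1.26 (adjusted p = 0.64), with 40.5 CPM in Apoe-/- replicate 4 and 11.1 CPM or less in the other 8 libraries. Aurkb, the kinase of the chromosomal passenger complex, was at 4.28 CPM or less in every library (log2 fold change 1.03, adjusted p = 0.73). Cdk1, which drives entry into mitosis, was at 0.81 to 5.62 and 1.14 to 11.9 CPM (log2 fold change 0.80, adjusted p = 0.76).

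The B cyclins, which activate Cdk1, were low too. Ccnb1 was at 3.83 CPM or less in every library (log2 fold change -0.99, adjusted p = 0.75). Ccnb2 was at 0.40 to 2.35 CPM in Apoe-/- and at 0.57 to 12.8 CPM in Mif-2-/- Apoe-/- livers, high in replicates 1 and 3 and low in replicates 2 and 4 (log2 fold change 2.22, adjusted p = 0.36). Among genes of the spindle checkpoint and its target, Bub1b had a log2 fold change of 0.82 (adjusted p = 0.73), Mad2l1 of -0.14 (adjusted p = 0.97) and Cdc20, the activator of the anaphase-promoting complex, of -1.32 (adjusted p = 0.56). Cdc20 was highest in Apoe-/- replicate 4, at 34.1 CPM, as Aurka was.

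The spindle motors Kif11 and Kif20a had log2 fold changes of 1.17 and 0.99 (adjusted p = 0.68 and 0.56). Kif20a was at 2.22 to 11.4 CPM in Apoe-/- and at 5.04 to 14.8 CPM in Mif-2-/- Apoe-/- livers. The kinetochore genes Cenpe and Cenpf were at 15.1 and 28.5 CPM in Mif-2-/- Apoe-/- replicate 3, and at 7.55 and 4.25 CPM or less in each other library (log2 fold changes 1.43 and 2.80, adjusted p = 0.62 and 0.39). Without that replicate 3 the log2 fold changes were 0.28 and 0.27. Birc5, the survivin subunit of the passenger complex, was at 34.1 CPM in Apoe-/- replicate 5 and at 30.7 and 24.9 CPM in Mif-2-/- Apoe-/- replicates 2 and 3 (log2 fold change 0.84, adjusted p = 0.78). Top2a, the topoisomerase that untangles chromosomes, was at 1.61 to 8.52 and 0.23 to 15.6 CPM (log2 fold change 0.69, adjusted p = 0.80).

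**Figure D3:**
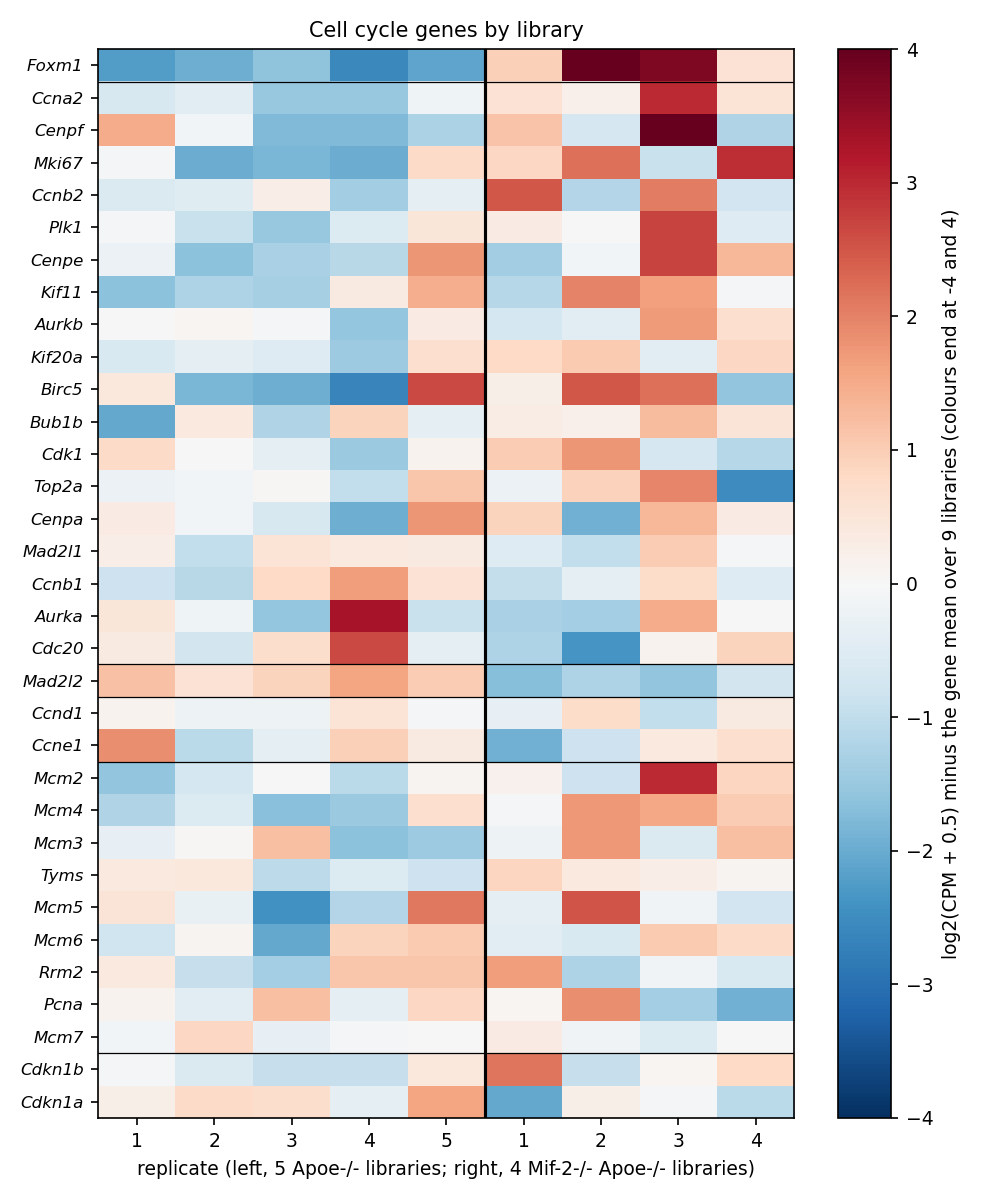
Level of the 33 genes tested in each library, as log2(CPM + 0.5) minus the mean of the gene over the 9 libraries (color, ending at -4 and 4), with genes in rows by role and libraries in columns. Foxm1 was below its mean in all 5 Apoe-/- and above it in all 4 Mif-2-/- Apoe-/- libraries, and 8 of the 18 G2 and mitosis genes were highest in Mif-2-/- Apoe-/- replicate 3.

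Which library was highest differed between Foxm1 and the mitotic genes. Foxm1 was highest in Mif-2-/- Apoe-/- replicate 2. Of the 18 G2 and mitosis genes tested, 8 were highest in replicate 3 of that genotype and 3 in replicate 2, while 20.7% and 9.16% of all genes tested were highest in those libraries. Summed over the 19 genes, the level was 73.1, 48.1, 44.1, 104 and 160 CPM in Apoe-/- and 103, 119, 241 and 112 CPM in Mif-2-/- Apoe-/- livers. The highest sum of each genotype was in the library with the most genes detected and a low sum of hepatocyte markers, whose part in the result was not tested.

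The markers of other cells were looked at beside these sums. Each of the 6 B-cell and plasma-cell markers had a count in some library, and their sum was 7.7 to 32.1 CPM in Apoe-/- and 17.6 to 104 CPM in Mif-2-/- Apoe-/- livers, highest in replicate 3. Of these, Mzb1, a chaperone of antibody-secreting cells, did not overlap, at 0 to 1.34 CPM in Apoe-/- and at 8.13, 14.2, 28.5 and 5.94 CPM in Mif-2-/- Apoe-/- livers (log2 fold change 4.37, edgeR adjusted p = 0.11, DESeq2 adjusted p = 4.1e-05), and like Foxm1 it was higher in replicates 2 and 3 than in 1 and 4. The 6 T-cell markers summed to 10.8 to 49.8 and 14.2 to 40.3 CPM, and none of them had a count in every library. They went in both directions. Cd3d was lower without overlap, at 1.55 to 7.86 against 0 to 0.69 CPM (edgeR adjusted p = 0.18, DESeq2 adjusted p = 0.019). Cd3e was at 0.47 CPM or less in Apoe-/- and at 0.41, 26.1, 1.01 and 0.23 CPM in Mif-2-/- Apoe-/- livers (log2 fold change 4.81, edgeR adjusted p = 0.18). Cd8a had a log2 fold change of 0.87, and Cd3g, Cd4 and Cd2 of -0.37, -0.70 and -0.09. The 5 neutrophil markers summed to 20.2 to 54.6 and 30.9 to 64.0 CPM, with Ly6g at 0 in all libraries. The sums of the 7 Kupffer-cell and macrophage, 6 sinusoidal endothelial, 6 stellate-cell and 6 cholangiocyte markers overlapped between the genotypes as well, and none of these markers was at 0 throughout. Of the macrophage markers, Cd5l was at 219 to 658 and 105 to 245 CPM (log2 fold change -1.20, edgeR adjusted p = 0.17, DESeq2 adjusted p = 0.035). The others of that list did not share 1 direction. Adgre1, Timd4 and Cd68 had log2 fold changes of -1.62, -0.14 and -0.07, and Clec4f, Vsig4 and Csf1r of 0.03, 0.17 and 0.31. Of the erythroid genes, Klf1 was at 1.23 to 19.6 and 0.50 to 58.8 CPM, highest in Mif-2-/- Apoe-/- replicate 1, and Alas2 at 20.8 to 74.8 and 25.6 to 57.9 CPM. Their part in the levels of the cell cycle genes was not tested.

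None of the 9 replication and nucleotide genes was called by edgeR or DESeq2, and 1 (Mcm2) had an unadjusted edgeR p under 0.05. Of these, 7 had a log2 fold change above 0 and 2 below, with a median of 0.46. The MCM genes encode the 6 subunits of the replicative helicase, which work in equal number, and their fitted log2 fold changes ran from -0.19 to 2.58. Mcm7, the highest of the 9 in CPM, was at 41.98, 80.2, 35.7, 43.5 and 44.7 CPM in Apoe-/- and at 56.7, 40.3, 30.5 and 45.5 CPM in Mif-2-/- Apoe-/- livers. Its groups overlapped (log2 fold change -0.19, standard error 0.38, adjusted p = 0.86).

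The other MCM genes varied more between libraries. Mcm2 was at 0.14 to 1.55 CPM in Apoe-/- and at 0.57 to 14.6 CPM in Mif-2-/- Apoe-/- livers. The fit gave 2.58 on the log2 scale (adjusted p = 0.31), and 1.09 without Mif-2-/- Apoe-/- replicate 3. Mcm4 was at 0.47 to 4.45 and 2.44 to 9.65 CPM (log2 fold change 2.01, adjusted p = 0.36). Mcm3, Mcm5 and Mcm6 had log2 fold changes of 0.94, 0.46 and 0.15 (adjusted p = 0.58, 0.86 and 0.96). Mcm5 was at 57.9 CPM in Mif-2-/- Apoe-/- replicate 2 and 43.8 CPM in Apoe-/- replicate 5, and at 13.99 CPM or less elsewhere.

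Tyms, which makes thymidylate, was at 4.69 to 13.9 CPM in Apoe-/- and at 11.2 to 19.3 CPM in Mif-2-/- Apoe-/- livers (log2 fold change 0.65, adjusted p = 0.67). Rrm2, the subunit of ribonucleotide reductase that limits it to S phase, and Pcna, the sliding clamp of the polymerases, had log2 fold changes of 0.02 and -0.03 (standard errors 1.10 and 1.01, adjusted p of 0.9965 and 0.99), whose sign changed with the scaling or the depth. Pcna was at 15.9 CPM in Mif-2-/- Apoe-/- replicate 2, and at 1.26 and 0.69 CPM in replicates 3 and 4. Summed over the 9 genes, the level was 77.4 to 129 CPM in Apoe-/- and 97.8 to 185 CPM in Mif-2-/- Apoe-/- livers, highest in replicate 2.

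Ccnd1, the D-type cyclin through which growth signals reach the cell cycle, had the highest level of the members. It was at 198, 157, 158, 266 and 172 CPM in Apoe-/- and at 144, 303, 92.0 and 230 CPM in Mif-2-/- Apoe-/- livers. The means were 190 ± 45.5 CPM (SD, n = 5) and 192 ± 93.1 CPM (SD, n = 4). The log2 fold change of 0.01 had a standard error of 0.35 (adjusted p = 0.99), and its sign turned with other scalings. Replicates 2 and 3, the Mif-2-/- Apoe-/- libraries with the most Foxm1, held the highest and the lowest Ccnd1 level of all 9. Ccne1, the cyclin of the step into S phase, was at 6.45 CPM or less in every library (log2 fold change -1.002, adjusted p = 0.76).

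Cdkn1a, the p53 target p21 that inhibits cyclin-dependent kinases, was at 23.3, 34.5, 32.4, 15.5 and 60.2 CPM in Apoe-/- and at 4.47, 23.3, 19.4 and 9.14 CPM in Mif-2-/- Apoe-/- livers. Replicates 2 and 3 of Mif-2-/- Apoe-/- lay within the Apoe-/- range and replicates 1 and 4 below it. The means were 33.2 ± 16.9 CPM (SD, n = 5) and 14.1 ± 8.75 CPM (SD, n = 4). The log2 fold change of -1.25 had a standard error of 0.60, at an adjusted p = 0.34 in edgeR and 0.23 in DESeq2. The difference thus did not pass the test (two-sided exact permutation test, unadjusted p = 0.056). Cdkn1b, the inhibitor p27, was at 0.77 CPM or less in Apoe-/- and 3.66 CPM or less in Mif-2-/- Apoe-/- livers (log2 fold change 2.19, adjusted p = 0.45).

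Levels of different genes were compared per kilobase of annotated exons. In Apoe-/- livers, the highest mean levels were those of Ccnd1 (40.4 CPM per kb), Mad2l2 (33.1), Mcm7 (11.1) and Cdkn1a (9.34), and Foxm1 was at 0.037 CPM per kb. In Mif-2-/- Apoe-/- livers, Ccnd1 stayed first at 40.8 CPM per kb, followed by Mcm7 (9.77), Plk1 (7.14), Foxm1 (6.78), Mad2l2 (6.37) and Mcm3 (6.06). Given the SDs of Plk1 and Foxm1, which exceeded their means, the order after Mcm7 does not hold beyond the spread of the libraries.

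The genes most like Foxm1 over the 9 libraries were not among the members. Likeness was the root mean square distance between log2(CPM + 0.5) profiles, each minus its own mean. Among those whose mean reached 10 CPM, the 5 nearest were Ramp3, a receptor activity-modifying protein (distance 0.80), an unnamed gene with the Entrez identifier 433082 (0.90), the taste receptor subunit Tas1r3 (0.997), the deubiquitinase Usp2 (1.09) and the pseudokinase Prag1 (1.28). Ramp3 was at 1.01 CPM or less in the Apoe-/- libraries and at 7.12, 44.3, 37.0 and 6.17 CPM in Mif-2-/- Apoe-/- livers, high in the same replicates 2 and 3 as Foxm1. Usp2 was at 2.62 to 12.9 CPM against 86.0, 142, 137 and 45.5 CPM.

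Among the 32 other members tested, Mcm4 was the nearest to Foxm1 (distance 1.82, place 302 of 16859), then Ccna2 (1.98, place 560) and Kif11 (2.15, place 1101). Of the 32, 2 were within the nearest 5% of genes and 4 within the nearest 10%, the median member was at the 23.6th percentile of nearness, and Mad2l2 was among the farthest (3.79, place 16657). As all profiles share the same 9 libraries and the difference between the genotypes, these places are a description only.

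**Figure D4:**
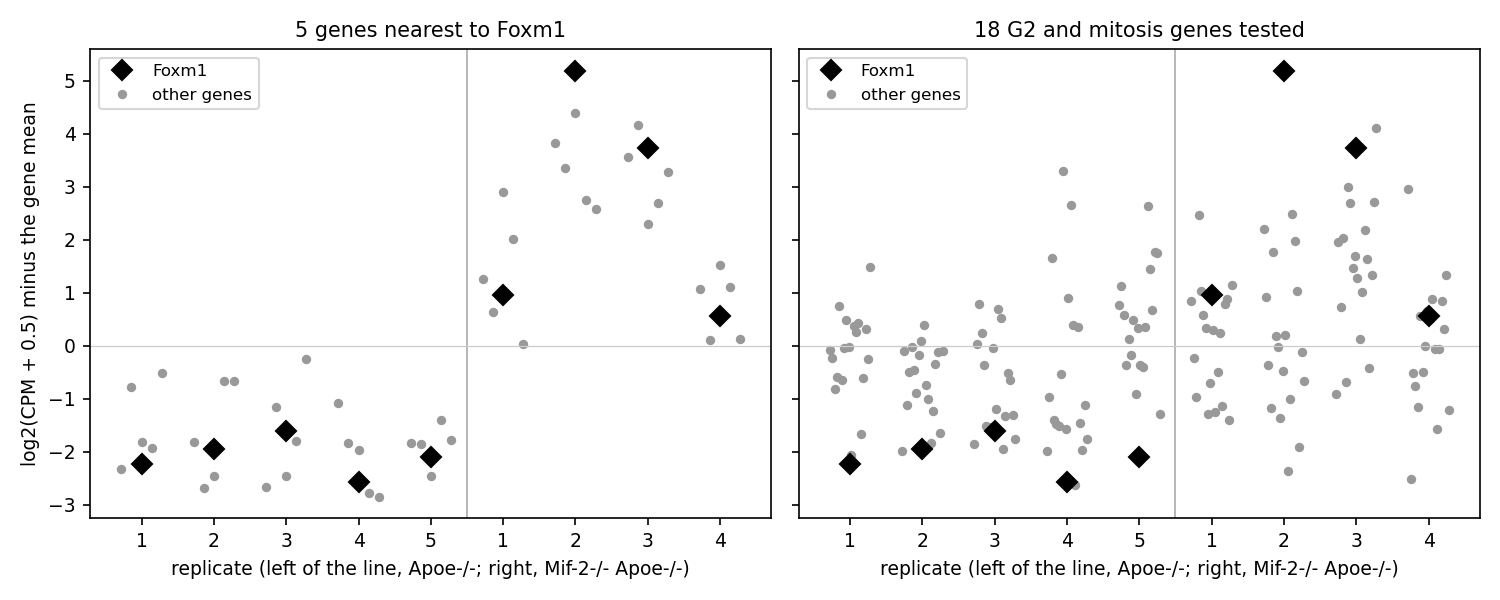
Level of Foxm1 (black diamonds) and of other genes (grey points) as log2(CPM + 0.5) minus the mean of each gene over the 9 libraries, by replicate, with the Apoe-/- libraries left and the Mif-2-/- Apoe-/- libraries right of the line. The 5 nearest genes (left panel) were above their means in all 4 Mif-2-/- Apoe-/- libraries, while the 18 G2 and mitosis genes (right panel) scattered on both sides of 0 in both genotypes.

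The wider cell cycle was covered by 153 further genes in 6 lists, of which 146 were tested. By edgeR none was called, with 15 at an unadjusted p under 0.05 in the higher and 2 in the lower direction, against 8.99% and 6.52% of all genes. DESeq2 called 5, all higher in Mif-2-/- Apoe-/- livers, against 2.75% of all genes: Tk1, Pole, Rbl1, Wee1 and Cdkn2b. Both counts of higher genes are near the share of all genes. The counts of lower genes, 2 and 0, are below the shares of 6.52% and 2.52%. The lists were chosen with earlier results of these data known, so these shares are no test of them. The median log2 fold change over the 146 was 0.60.

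Of 42 other replication genes, 26 had a log2 fold change above 0 and 16 below, with a median of 0.61. Tk1, the thymidine kinase of S phase, was at 68.3, 87.8, 78.4, 139 and 59.4 CPM in Apoe-/- and at 296, 145, 183 and 223 CPM in Mif-2-/- Apoe-/- livers. The groups did not overlap, by a narrow margin between Apoe-/- replicate 4 and Mif-2-/- Apoe-/- replicate 2 (log2 fold change 1.29, standard error 0.33, edgeR adjusted p = 0.14, DESeq2 adjusted p = 0.0062). Pold1, the catalytic subunit of polymerase delta, was at 4.43 to 60.6 and 94.7 to 135 CPM, also without overlap (log2 fold change 1.54, edgeR adjusted p = 0.20, DESeq2 adjusted p = 0.081). Pole, the catalytic subunit of polymerase epsilon, was at 0.20 to 14.1 and 9.37 to 113 CPM (log2 fold change 2.81, edgeR adjusted p = 0.18, DESeq2 adjusted p = 0.046).

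The summed level of the 42 genes was 560, 531, 553, 525 and 603 CPM in Apoe-/- and 1018, 718, 904 and 784 CPM in Mif-2-/- Apoe-/- livers. All 4 Mif-2-/- Apoe-/- sums were above all 5 Apoe-/- sums, and without Tk1, the largest contributor, the ranges were 386 to 544 and 561 to 721 CPM. A sum follows its most abundant genes. Besides Tk1, the means of Pold1, Mcm10 and Pole were 38.1, 29.6 and 6.65 CPM in Apoe-/- livers. They were 111, 60.7 and 46.3 CPM in Mif-2-/- Apoe-/- livers, so the sum without Tk1 still holds genes with large differences. Rfc2, the next in level after Tk1, had a log2 fold change of -0.18, and Pola2, Dut and Rpa2 of -0.69, -0.61 and -0.46.

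**Figure D5:**
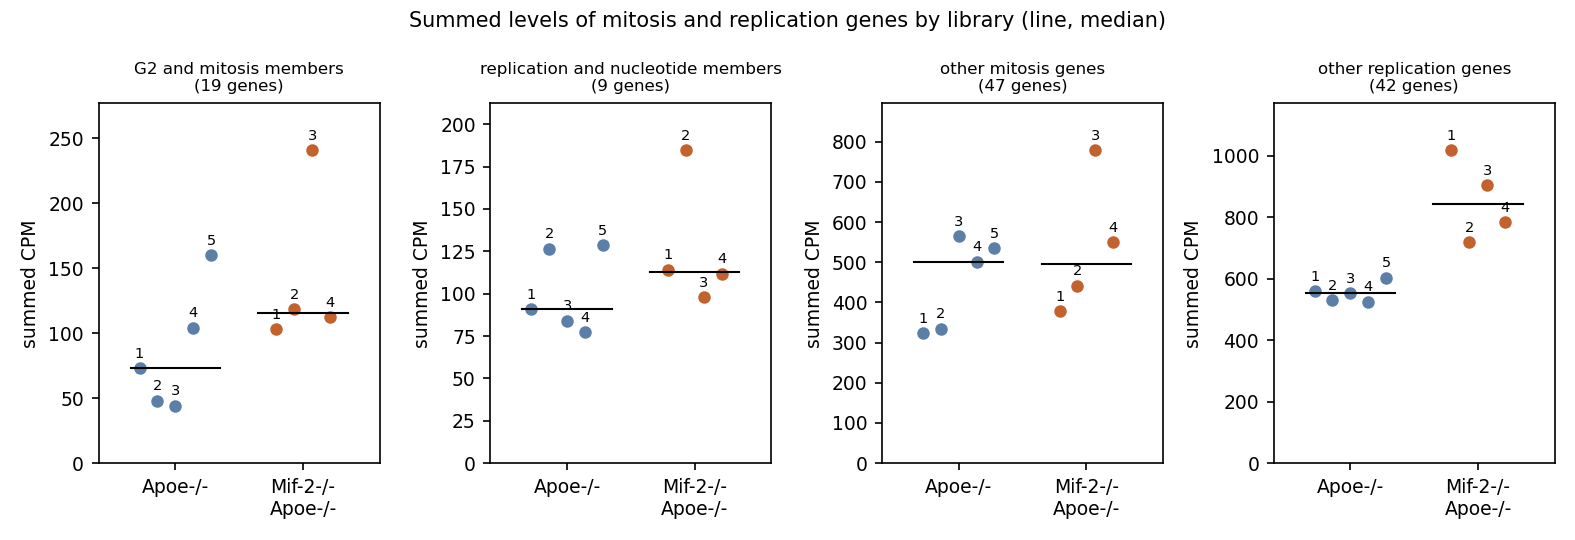
Summed CPM (vertical axes, from 0) of the 19 G2 and mitosis members, the 9 replication and nucleotide members, 47 other mitosis genes and 42 other replication genes in each library, numbered by replicate, with the median of each genotype as a line. The genotypes overlapped in the first 3 sums and not in the last, where the Apoe-/- libraries were at 525 to 603 CPM and the Mif-2-/- Apoe-/- libraries at 718 to 1018 CPM.

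Of 47 other mitosis genes, 43 were tested, 30 with a log2 fold change above 0 and 13 below, and the ranges of their summed level overlapped (323 to 566 and 378 to 779 CPM). The 3 with the smallest p, Dlgap5, Melk and Aspm, proteins of the spindle and, in the case of Melk, a kinase, were at 1.55 CPM or less in each Apoe-/- library. In Mif-2-/- Apoe-/- replicate 3 they reached 27.5, 14.4 and 27.7 CPM, and Dlgap5 and Aspm were at 4.12 CPM or less in the other 3 libraries of that genotype. Their adjusted p was 0.20, 0.23 and 0.27. Mybl2, the B-Myb partner of MuvB, was at 36.3 CPM in the same library and at 2.88 CPM or less in the other 8 (log2 fold change 3.26, adjusted p = 0.32). The MuvB subunits Rbbp4 and Lin9 had log2 fold changes of 1.26 and 1.54 (adjusted p = 0.38 and 0.50).

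Among 18 brakes of the cell cycle, 17 were tested, 8 with a log2 fold change above 0 and 9 below. Wee1, the kinase that holds Cdk1 inactive before mitosis, was at 0.14, 0.27, 0.94, 0 and 1.55 CPM in Apoe-/- and at 9.15, 2.27, 50.6 and 9.14 CPM in Mif-2-/- Apoe-/- livers. The groups did not overlap, and the lowest Mif-2-/- Apoe-/- library was replicate 2, the highest for Foxm1 (log2 fold change 4.96, standard error 1.22, edgeR adjusted p = 0.13, DESeq2 adjusted p = 0.0012). Cdkn2b, the inhibitor p15, was at 0.97 CPM or less in Apoe-/- and at 0, 0.57, 29.5 and 14.4 CPM in Mif-2-/- Apoe-/- livers (log2 fold change 4.86, edgeR adjusted p = 0.18, DESeq2 adjusted p = 0.047). Cdkn2a, which encodes the inhibitor p16, had no more than 2 counts in any Apoe-/- library and 10, 4, 1 and 4 counts in Mif-2-/- Apoe-/- livers, and no fold is given because both groups were near the floor (adjusted p = 0.22).

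The 20 genes of G1 and S control had a median log2 fold change of 0.47. Rbl1, the retinoblastoma-like protein p107, was at 1.65 CPM or less in Apoe-/- and at 6.71, 18.7, 9.32 and 1.14 CPM in Mif-2-/- Apoe-/- livers (log2 fold change 3.17, edgeR adjusted p = 0.22, DESeq2 adjusted p = 0.043). The repressor E2f6 and the activator E2f1 had log2 fold changes of 1.55 and -1.42 (adjusted p = 0.48 and 0.50). Of 20 other forkhead genes, 18 were tested and none was called. Foxq1 was at 0.20 to 12.8 and 9.37 to 32.3 CPM (log2 fold change 2.20, adjusted p = 0.24), Foxa3, a liver forkhead factor, at 33.1 to 73.8 and 25.4 to 37.8 CPM (log2 fold change -0.86, adjusted p = 0.29), and Foxp2 at 0.54 to 2.35 and 1.14 to 12.1 CPM (log2 fold change 2.24, adjusted p = 0.32). The rise of Foxm1 was thus the only call among the forkhead genes tested.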

How the data were processed

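RNA of frozen liver sections was sequenced in bulk from 5 Apoe-/- and 4 Mif-2-/- Apoe-/- samples, grouped by the genotype in the labels. The authors used FastQC for read quality, cutadapt for trimming and HISAT2 for alignment (mm10 per the submitters' processing notes), and deposited raw counts of reads on exons per Entrez gene. The strand setting and the treatment of PCR duplicates are not given in the sources used here. Of 27179 genes, 25275 were matched to RefSeq symbols, and 1 line without an identifier was left out.

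A gene was kept with 1 count or more in 3 or more libraries of a genotype, the 10 most abundant were excluded, and 16860 were tested with edgeR 4.0.16 (quasi-likelihood, TMM, Benjamini-Hochberg) in R 4.3.3. Standard errors are the ratio of log2 fold change to the root of F. DESeq2 1.42.0 was also run, on each gene with any count. Exact permutation tests over 126 arrangements used log2(CPM + 0.5). Floors of 3 counts cover counting error only. The fit was tested on simulated data. Exon lengths and positions came from GENCODE M21. Figures used matplotlib 3.10.9.

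Named one by one with each library's value were Foxm1, Mki67, Ccnd1, Cdkn1a, called or non-overlapping members and the most abundant of each role, and up to 3 genes of smallest p per other list. The members and lists were chosen with earlier results of these data known. The alternatives were RLE and TMMwsp factors, no filter or filterByExpr, the 10 genes kept, thinned counts, a replicate block and each library left out. Leaving out 2 libraries together was added after seeing the data. One marker is not reported here.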

Additional observations from a re-analysis of the deposited data

Results flagged for a closer look

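Dixon's test at the 95% level was run on the CPM, without a log, of 66 groups of libraries (33 genes in 2 genotypes). Its chance rate of about 1 in 20 holds for normally distributed values, and many of these genes were scarce and uneven. In 12 groups the highest or lowest library stood apart from the rest of its genotype, which is not read as an excess. In Mif-2-/- Apoe-/- replicate 3 these were Ccna2 at 10.8 CPM, Plk1 at 44.1 CPM and Cenpf at 28.5 CPM, where the next highest library of the genotype was at 1.63, 8.13 and 3.25 CPM. In Mif-2-/- Apoe-/- replicate 2 it was Mcm5 at 57.9 CPM, with 8.82 CPM in the next. In Apoe-/- replicate 5 they were Birc5 at 34.1 CPM, Cenpe at 7.55 CPM and Mcm4 at 4.45 CPM, and in Apoe-/- replicate 4 Aurka at 40.5 CPM and Cdc20 at 34.1 CPM. Cenpf stood apart at 4.25 CPM in Apoe-/- replicate 1, and Mcm7 at 80.2 CPM and Mad2l1 at 0 CPM in Apoe-/- replicate 2. Foxm1 and Mad2l2, the 2 genes called, had no such library in either genotype.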

How the results depend on the processing

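Foxm1 kept its direction and its call with DESeq2, RLE, TMMwsp, either other filter, the 10 abundant genes kept, thinned counts, the replicate block and the 2 gene-rich libraries left out together. Leaving out 1 library at a time moved its log2 fold change between 6.13 and 7.87, the members called higher between 0 and 1, those called lower between 0 and 1, and all genes called between 9 and 262 (lowest without Apoe-/- replicate 3, highest without Mif-2-/- Apoe-/- replicate 2). Without the 2 gene-rich libraries together, 0 members were called lower and 39 genes in all. DESeq2 called 739 genes, 386 of them higher. The replicate block uses replicates 1 to 4 of both genotypes, and with it 505 genes were called, against 126 without Apoe-/- replicate 5 alone, and Foxm1 had a log2 fold change of 6.94. The labels do not say whether the replicate numbers pair the samples. Same-numbered libraries had correlations of deviations of 0.12, 0.0082, 0.061 and -0.012, within the range of -0.17 to 0.26 of differently numbered ones. So few libraries cannot settle whether there is a pairing. The median over all genes of the log2 fold change moved from 0.17 to -0.0015 with TMMwsp.

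Genes with changes near 0 turned sign. Ccnd1 was at -0.14 (TMMwsp), -0.016 (filterByExpr), -0.073 (10 genes kept) and -0.13 (replicate block), and Rrm2 at -0.018 (DESeq2), -0.026 (RLE), -0.19 (TMMwsp), -0.045 (filterByExpr) and -0.075 (10 genes kept). Mcm6 was at -0.036 (TMMwsp), Pcna at 0.070 and Mad2l1 at 0.24 (both thinned), and Pcna at 0.45 without the 2 gene-rich libraries. With 1 library left out, log2 fold changes ran from -0.22 to 1.16 for Top2a, -0.0056 to 1.14 for Cdk1, -2.33 to 0.51 for Aurka, -1.25 to 0.16 for Mad2l1, -0.21 to 0.97 for Cenpa, -0.38 to 0.25 for Ccnd1, -1.01 to 1.51 for Mcm5, -0.19 to 0.49 for Mcm6, -1.20 to 0.32 for Rrm2 and -1.48 to 0.35 for Pcna. The cause was not tested. The low counts of most mitotic genes, and the biological coefficient of variation of 0.909, limit what could be detected.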
